A study of Homo sapiens with 6 samples.

Results

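Epithelial and mesenchymal identity genes are described here in RNA of cells labelled HepG2, an established human line that grew from a liver cancer. The set comprised 10 genes chosen by name: the keratins KRT7, KRT8, KRT18 and KRT19, the cadherins CDH1 and CDH2, the adhesion gene EPCAM, the filament gene VIM, and the transcription factor genes SNAI2 and ZEB1. Of these, 9 were found among the 28563 genes of the deposited table by Ensembl identifier and GENCODE symbol, and KRT19 was not analysed here. Polydatin (PD), a plant compound and a glucoside of resveratrol, was dissolved in DMSO. In the labels, 3 dishes received PD at 336 µM for 24 h and 3 dishes received DMSO alone (0 µM), and the methods of the study give a lower dose. All dishes came from the same line, so p-values measure the spread between dishes. Values are given as FPKM (fragments relative to exon length and library size), and the library totals worked back from them were 16308476 to 18071632 fragments.

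Epithelial cells are held together by E-cadherin (CDH1) at adherens junctions and by EPCAM, and they carry a cytoplasmic network of keratins. Keratin filaments are built from pairs, each of a type II keratin, such as KRT7 or KRT8, and a type I keratin, such as KRT18 or KRT19. Mesenchymal cells typically carry N-cadherin (CDH2) and vimentin (VIM) instead. In the epithelial-mesenchymal transition (EMT), zinc finger repressors including SNAI2 and ZEB1 bind E-box sequences in the promoters of CDH1 and other epithelial genes. Hepatocytes contain KRT8 and KRT18, and bile duct cells contain KRT7 and KRT19 in addition. HepG2 is commonly described as an epithelial line with CDH1, EPCAM, KRT8 and KRT18 that secretes plasma proteins of the liver.

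The upstream sequences of CDH2, VIM and ZEB1 are shown because the first pair are the mesenchymal genes of the set that rose with PD, and because ZEB1, which fell, encodes a factor that reads E-boxes. Each run holds the 250 bases before the start of the gene in RefSeq (GRCh38.p14), 5′ to 3′ on the strand of the gene, and capitals mark the E-box letters CACCTG or CAGGTG, which are the reverse complement of each other. The windows are chr18:28177131-28177380 on the minus strand for CDH2, and chr10:17227991-17228240 and chr10:31318167-31318416 on the plus strand for VIM and ZEB1.
CDH2: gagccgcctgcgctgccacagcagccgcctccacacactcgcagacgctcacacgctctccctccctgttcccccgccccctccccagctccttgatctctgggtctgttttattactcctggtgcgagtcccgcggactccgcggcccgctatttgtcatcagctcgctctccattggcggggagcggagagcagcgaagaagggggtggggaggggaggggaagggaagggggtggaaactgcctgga
VIM: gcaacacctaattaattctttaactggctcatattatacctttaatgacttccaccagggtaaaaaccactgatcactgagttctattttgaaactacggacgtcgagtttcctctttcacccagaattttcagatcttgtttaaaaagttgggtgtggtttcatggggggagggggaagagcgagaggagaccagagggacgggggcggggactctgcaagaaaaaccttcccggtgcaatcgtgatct
ZEB1: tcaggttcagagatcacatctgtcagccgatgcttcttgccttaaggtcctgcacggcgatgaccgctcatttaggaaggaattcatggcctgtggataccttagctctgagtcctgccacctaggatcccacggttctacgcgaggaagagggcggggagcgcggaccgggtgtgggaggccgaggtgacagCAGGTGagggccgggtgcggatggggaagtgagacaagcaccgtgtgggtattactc
The E-box letters occurred once in the ZEB1 window and in neither of the others printed, and 2 of the 7 listed starts of ZEB1 have them. Over all 35116 starts in the table, 17.5% of the 250-base windows hold them. A start was listed for 4 of the 10 genes, the fourth being KRT8. These matches describe letters and not bound sites.

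In DMSO-treated cells the keratins were abundant, the mesenchymal genes were moderately expressed, and CDH1 was close to the limit of detection. The order of mean FPKM was KRT7 (60.3 ± 2.44), KRT8 (50.1 ± 2.04), KRT18 (46.5 ± 1.37), VIM (20.7 ± 0.657), SNAI2 (5.58 ± 0.423), ZEB1 (3.39 ± 0.115), CDH2 (2.495 ± 0.277), EPCAM (1.17 ± 0.336) and CDH1 (0.127 ± 0.0278; SD, n = 3 each). The ranges of the 3 libraries did not overlap between any neighbours in this order, but KRT8 and KRT18 came close, with a lowest value of 48.3 FPKM for KRT8 and a highest of 48.1 FPKM for KRT18. Among all genes of the table, KRT7 stood at percentile 97.7, KRT8 at 97.0, KRT18 at 96.7, VIM at 91.4 and CDH1 at 33.1 of the mean FPKM in DMSO. FPKM divide by the exon length of the gene, and the lengths that give whole fragments were 6881 bases for KRT8, 4093 for KRT7 and 3218 for KRT18. The order of these keratins rests on those lengths, since KRT8 had the most fragments, 5575 to 6158 per DMSO library.

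**Figure D1:**
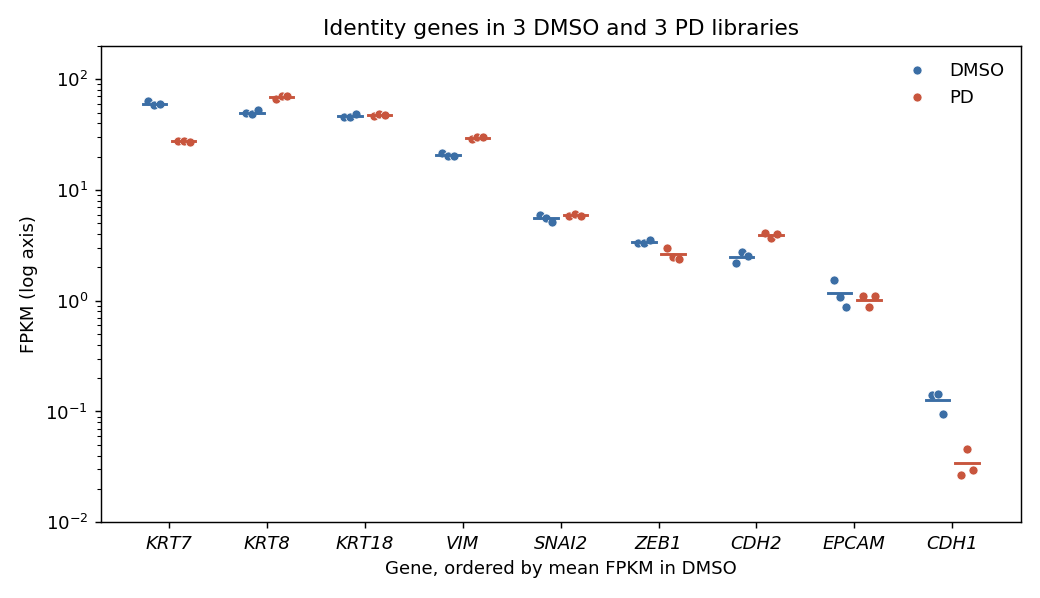
FPKM of each identity gene on a log axis, with 3 DMSO libraries in blue, 3 PD libraries in red and a bar at each group mean, genes ordered by their mean in DMSO. KRT7, ZEB1 and CDH1 sit lower in PD, KRT8, VIM and CDH2 sit higher, and the groups of KRT18, SNAI2 and EPCAM overlap.

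The control values went against the labelled cell type in several respects. CDH1 was represented by 15, 15 and 10 fragments in DMSO replicates 1, 2 and 3, with exact Poisson 95% intervals of 8.40 to 24.7 fragments for 15 and 4.795 to 18.4 for 10, which cover counting error only. EPCAM had 67, 46 and 38 fragments in the same libraries. Among 32 hepatocyte markers, 18 were in the table, of which 13 had at most 0.1 FPKM in DMSO and only CPS1 reached 1 FPKM. HNF4A, a transcription factor listed here as a hepatocyte marker, had 3, 13 and 2 fragments in DMSO. SERPINA1, which encodes the plasma protein alpha-1 antitrypsin, had 0 in each DMSO library. For a count of 0, the one-sided 95% upper limit is about 3 fragments. CPS1, the first enzyme of the urea cycle, which is also known from the intestine, had 225 ± 3.45 FPKM (SD, n = 3) in DMSO. KRT8 and KRT18 were high, as is usual for HepG2, but they are shared by many simple epithelia. KRT7, described above for bile duct cells in addition to the keratins of hepatocytes, was higher still, at 60.3 FPKM in DMSO. The values thus described cells with simple-epithelial keratins, with VIM, SNAI2, ZEB1 and CDH2, with almost no CDH1 and with little hepatocyte RNA. No reference library of HepG2 was analysed here, and no other identity is assigned.

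Marker lists of other cell types were also read in DMSO. Of 10 bile duct markers, all in the table, 5 reached 1 FPKM, among them SLC4A2 (42.4 FPKM), ONECUT2 (8.70 FPKM), ANXA4 (7.32 FPKM) and TSPAN8, of which SLC4A2 and ANXA4 are expressed in many tissues. SPP1 had 0, 1 and 0 fragments and CFTR had 4, 0 and 10, and these and other genes at or near 0 were named after their values were known. ESAM (30.6 FPKM) and EGFL7 (12.4 FPKM) were the members of the endothelial list above 1 FPKM, whereas 7 of its 10 measured genes had at most 0.1 FPKM, including PECAM1, CDH5 and VWF, which define endothelium. None of the 7 measured leukocyte markers and none of the 7 intestinal, 6 neural, 4 renal and Mullerian or 3 lung markers reached 1 FPKM. Of the squamous list, SFN (59.8 FPKM) and KRT17 (12.8 FPKM) were the 2 of 7 measured genes that did. In the urothelial list this held for PPARG (1.55 FPKM) and UPK3B (1.54 FPKM) out of 7 genes. The fibroblast and stellate list had COL1A1 (3.46 FPKM) above 1 FPKM among 8 measured genes, most of which are also in the mesenchymal list.

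**Figure D2:**
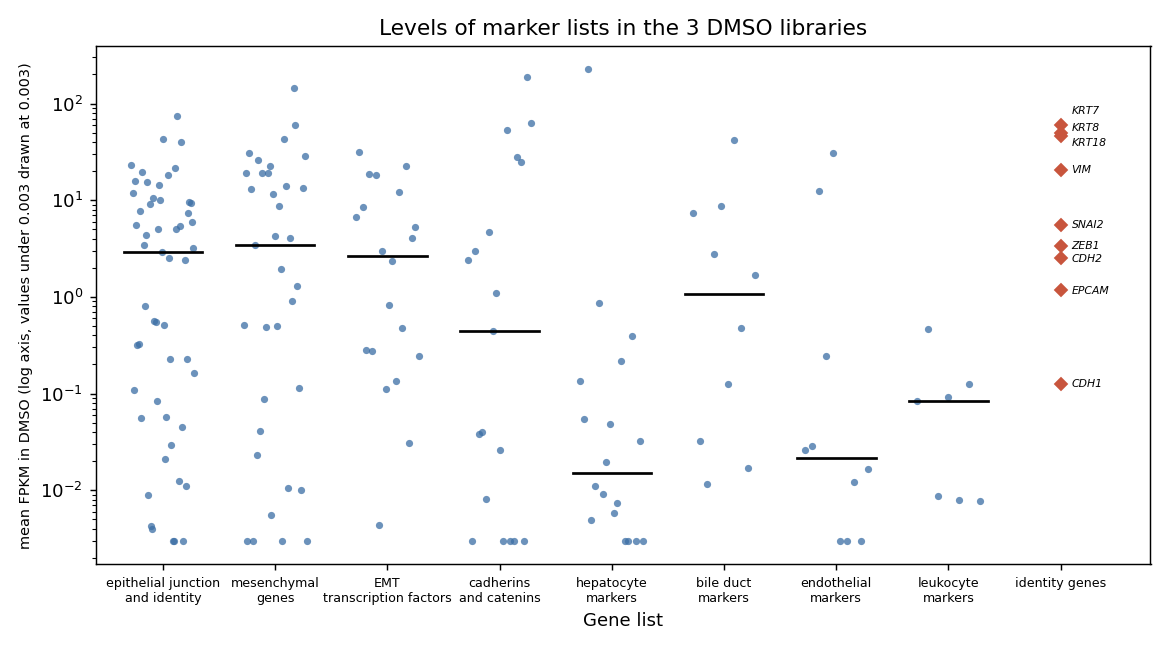
Mean FPKM in the 3 DMSO libraries (log axis) of the measured genes of 8 lists in blue, with the list median as a black bar, and of the identity genes in red. The hepatocyte markers have a median of 0.0152 FPKM with CPS1 far above the rest, while the epithelial (2.90) and mesenchymal (3.46) lists have similar medians.

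PD was compared with DMSO by limma on log2(FPKM + 1) over 14400 genes whose mean reached 0.5 FPKM, at an adjusted p of at most 0.05. Of the 9 identity genes, 8 were tested and CDH1 fell below the minimum. KRT8, VIM and CDH2 rose, KRT7 and ZEB1 fell, and KRT18, SNAI2 and EPCAM were not called. These 3 rises and 2 falls compare with a background in which 31.9% of all tested genes were called higher and 26.2% lower, so the share of identity genes called, 5 of 8, was near the 58.1% of all tested genes called in either direction. With voom on fragments, 3 of 9 rose and 3 fell, where 62.7% of the tested genes were called. Those that fell include CDH1, which met the fragment minimum only through its DMSO libraries. At 2-fold, voom called KRT7 and CDH1 lower and none higher, beside 4.79% lower and 6.72% higher among all genes. With upper quartile scaling the calls over all genes changed from 4588 higher and 3780 lower to 3376 higher and 5263 lower. The median log2 fold change was 0.05 for the 8 genes and 0.01 for all tested genes. The libraries of PD and DMSO did not overlap for 5 of the 8 tested identity genes, where 65.4% of all tested genes show this. With limma, KRT7 was the identity gene that changed by at least 2-fold, a size that 1.57% of the tested genes reached as lower and 2.04% as higher. In bulk RNA, a change in the RNA per cell and a change in the share of cells of a type cannot be told apart.

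**Figure D3:**
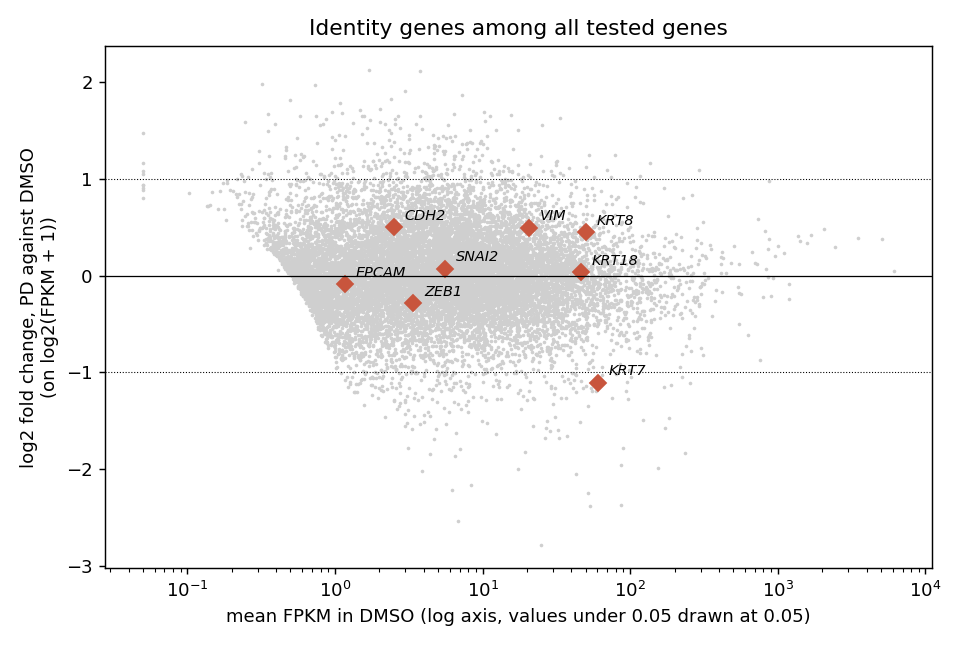
Log2 fold change of PD against DMSO (on log2(FPKM + 1)) by mean FPKM in DMSO (log axis) for the 14400 tested genes in grey and the 8 tested identity genes in red, with dotted lines at 2-fold. KRT7 lies beyond the lower line at -1.11 and the others lie between -0.28 and 0.50.

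Among the type II keratins, KRT7 fell and KRT8 rose. KRT7 (ENSG00000135480), the keratin of glandular and duct epithelia, lies on chromosome 12 of GRCh38 from 52232520 to 52252186 (plus strand). It had 63.0, 58.4 and 59.4 FPKM in DMSO replicates 1, 2 and 3, and 27.5, 27.7 and 27.1 FPKM in PD. Every PD library was below every DMSO library, and the PD mean was 0.455 of the DMSO mean. On the log2 scale KRT7 changed by -1.11 (SE 0.04, limma adjusted p = 2.6e-06). Exons of KRT7 share bases with KRT7-AS and KRT87P on the opposite strand, which both fell too (log2 fold changes of -0.70 and -1.06), and it is not stated whether strand was used in counting, so part of these values may be shared.

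KRT8 (ENSG00000170421), which is found in nearly all simple epithelia, lies further along chromosome 12, from 52897187 to 52949954 (minus strand). Its FPKM were 49.6, 48.3 and 52.3 in DMSO and 65.7, 70.5 and 70.4 in PD, so the groups did not overlap. On the log2 scale KRT8 changed by 0.45 (SE 0.04, limma adjusted p = 0.00011). KRT7 made up 56.0%, 54.7% and 53.2% of the sum of KRT7 and KRT8 FPKM in the DMSO libraries and 29.5%, 28.2% and 27.8% in the PD libraries. The log2 ratio of KRT7 to KRT8 was lower in PD by 1.59, and the exact two-sided permutation test gave p = 0.10, which is the smallest that 3 against 3 libraries allow (adjusted over 6 ratios, 0.10).

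KRT18 (ENSG00000111057), the usual type I partner of KRT8, starts next to it, from 52948871 to 52952906 (plus strand), and 525 bases of their annotated exons overlap. KRT18 had 45.6, 45.8 and 48.1 FPKM in DMSO and 47.1, 48.5 and 47.6 FPKM in PD, and the groups overlapped. The log2 fold change was 0.04 with a 95% confidence interval of -0.04 to 0.11 (adjusted p = 0.39, limma), and it was -0.10 with an adjusted p of 0.056 with upper quartile scaling. The interval of KRT18 did not reach the 0.45 of KRT8. The ratio of KRT8 to KRT18 was 1.09, 1.05 and 1.09 in DMSO and 1.40, 1.46 and 1.48 in PD, a log2 difference of 0.42 (exact two-sided permutation p = 0.10, adjusted 0.10). Reads from the overlapping exons of the pair were not resolved here.

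**Figure D4:**
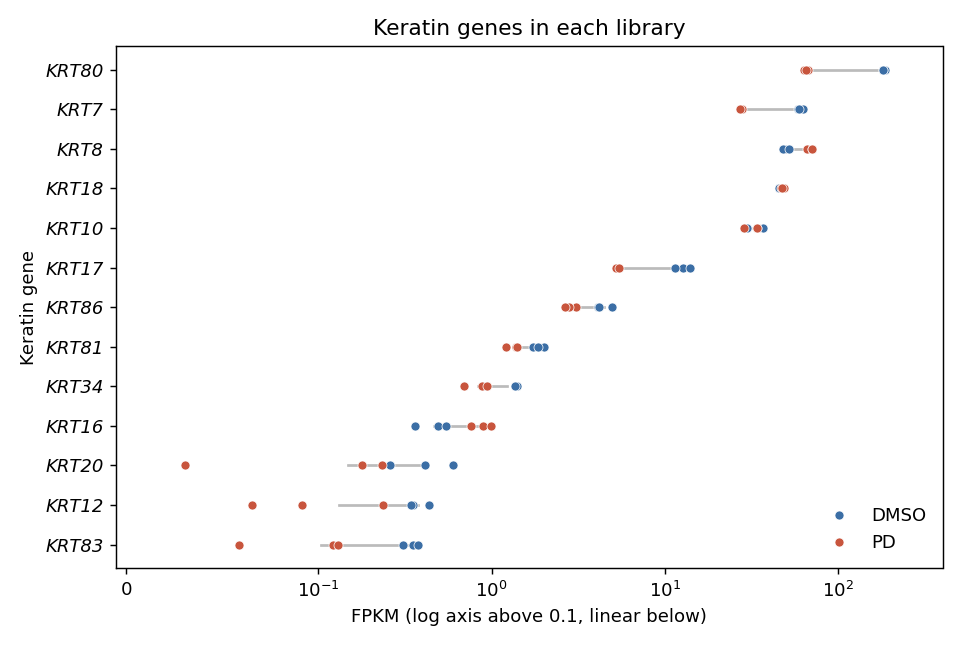
FPKM of the 13 keratin genes with a group mean of at least 0.1 FPKM (log axis above 0.1 and linear below), with 3 DMSO libraries in blue, 3 PD libraries in red and a grey line between the group means. KRT80, KRT7, KRT17, KRT86 and KRT81 sit lower in PD, as do KRT83, KRT12 and KRT20 at levels under 0.5 FPKM, and KRT8 and KRT16 sit higher.

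Among the other keratins, more tested genes fell than rose. Of 33 further keratins, 17 were in the table and 7 were tested, of which KRT80, KRT17, KRT86 and KRT81 fell, KRT16 rose, and KRT10 and KRT34 were not called, and the median change on the log2 scale was -0.30 beside 0.01 for all tested genes. The 4 of 7 called lower compare with 26.2% of all tested genes. The groups overlapped for 9 of the 17, while 40.1% of all 28563 genes had groups that did not overlap. KRT80, a type II keratin of many epithelia, was the most abundant keratin measured, with 183 ± 1.62 FPKM in DMSO and 65.3 ± 1.94 FPKM in PD (SD, n = 3 each). Its log2 fold change of -1.48 (standard error 0.03, adjusted p = 8.2e-07, limma) compares with -1.11 for KRT7. KRT17, a type I keratin of basal and stressed epithelia, went from 12.8 ± 1.23 to 5.33 ± 0.111 FPKM (SD, n = 3 each), or -1.12 on the log2 scale. KRT10, a type I keratin known from differentiating epidermis, had 33.8 ± 3.55 FPKM in DMSO and 32.2 ± 2.98 FPKM in PD (SD, n = 3 each). With upper quartile scaling, 5 of the 7 were lower, and KRT16 lost its call without DMSO replicate 2, PD replicate 1 or PD replicate 3.

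KRT7 and KRT80 are neighbours, and the genes around them were read as well, a step chosen after their values were known. Within 200 kb of KRT7, 17 genes are in the table and 9 were tested, of which 7 were lower and 2 were higher in PD, beside 26.2% and 31.9% of all tested genes. The 7 include KRT7 and KRT80, whose falls prompted the window, and KRT7-AS and KRT87P, which share exon bases with KRT7, so nothing is read from the count. Those lower were KRT80, KRT7, KRT7-AS, KRT86, KRT87P, KRT81 and an unnamed antisense gene at KRT86. KRT86 (-0.50 on the log2 scale) and KRT81 (-0.30) are hair keratins with closely similar sequences, so their reads may be shared. The 2 higher genes, NR4A1 and ATG101, lie beyond KRT80, at 52022832 to 52077495, with log2 fold changes of 0.29 and 0.41. KRT83, which was below the minimum for the test, had 0.344 FPKM in DMSO and 0.104 FPKM in PD, and its groups did not overlap. KRT8, which rose, lies outside this window.

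VIM (ENSG00000026025), which encodes the main intermediate filament protein of mesenchymal cells, rose with PD. The gene lies on chromosome 10 from 17228241 to 17237593 (plus strand), directly after the upstream sequence printed above. VIM had 21.4, 20.3 and 20.3 FPKM in DMSO and 28.8, 30.0 and 30.0 FPKM in PD, without overlap. VIM changed by 0.50 on the log2 scale (SE 0.04, limma adjusted p = 3.8e-05). The ratio of VIM to KRT18 was 0.470, 0.443 and 0.422 in DMSO and 0.612, 0.618 and 0.631 in PD, a log2 difference of 0.48 (exact two-sided permutation p = 0.10, adjusted 0.10). VIM-AS1, whose exons overlap VIM on the opposite strand, went the other way, with 0.569 ± 0.0994 FPKM in DMSO and 0.116 ± 0.0272 FPKM in PD (SD, n = 3 each), and was below the minimum for the test.

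Of 18 other filament and linker genes measured, 14 were tested, and 6 rose, 5 fell and 3 were not called (median log2 fold change 0.06). Over all tested genes, 31.9% were called higher and 26.2% lower. NES, which encodes nestin of neural and other progenitor cells, rose from 0.358 ± 0.0431 to 2.20 ± 0.104 FPKM (SD, n = 3 each). Its change was 1.24 on log2(FPKM + 1), which understates changes at such low FPKM, and ran from 1.17 to 2.61 over the alternatives. SYNM, which encodes synemin, a filament protein that assembles with vimentin, rose from 10.2 ± 0.680 to 18.0 ± 0.383 FPKM (0.76 on the log2 scale). EPPK1, a plakin that binds keratins and vimentin, rose by 0.67 on the same scale. The nuclear lamins LMNA (-0.16) and LMNB2 (-0.17) and the linker PLEC (-0.23) fell slightly. Median-of-ratios and upper quartile scaling gave 6 and 5 higher genes and 6 lower genes each.

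The cadherins had low RNA levels. CDH2 rose, and CDH1 was too low for the main test and entered voom only through its DMSO counts. CDH2 (ENSG00000170558), which encodes N-cadherin, lies on chromosome 18 from 27932879 to 28177946 (minus strand) in GENCODE. The RefSeq start behind the sequence printed above lies inside this span, so that window is upstream of the RefSeq start and not of the whole span. CDH2 had 2.20, 2.75 and 2.54 FPKM in DMSO, from 188, 228 and 215 fragments, and 4.12, 3.67 and 4.03 FPKM in PD, from 369, 318 and 325 fragments. All PD libraries were above all DMSO libraries. CDH2 changed by 0.50 on the log2 scale (SE 0.08, limma adjusted p = 0.0011), and voom on fragments, which has no pseudocount of 1 FPKM, gave 0.66.

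CDH1 (ENSG00000039068), which encodes E-cadherin, lies on chromosome 16 from 68737292 to 68835537 (plus strand). It had 0.141, 0.145 and 0.0946 FPKM in DMSO and 0.0269, 0.0462 and 0.0298 FPKM in PD, from 3, 5 and 3 fragments. The groups did not overlap, as for 40.1% of all 28563 genes, but the counts are small, at 40 fragments over the DMSO libraries and 11 over the PD libraries. With voom on fragments, CDH1 passed the minimum of 10 fragments in 3 libraries only through DMSO, which held 15, 15 and 10 fragments. Its log2 fold change there was -1.76 (95% confidence interval -2.68 to -0.84, voom adjusted p = 0.0016), in a fit where 28.3% of genes were called lower. That filter admitted CDH1 through the group where it was higher, so nothing is read from the call. Without the minimum on FPKM, limma gave an adjusted p of 0.025 and a change of -0.12 on the log2(FPKM + 1) scale. Both levels of CDH1 were very low. The ratio of CDH2 to CDH1 was 15.6, 19.0 and 26.8 in DMSO and 153, 79.4 and 135 in PD, and that of VIM to CDH1 was 152, 140 and 214 in DMSO and 1071, 649 and 1009 in PD. With a pseudocount of 0.1 FPKM the log2 differences were smaller, at 1.39 instead of 2.56 for CDH2 and 1.27 instead of 2.42 for VIM. Both differences had an exact two-sided permutation p of 0.10 (adjusted 0.10), and the spread of these ratios in PD rests on 3 to 5 fragments of CDH1 per library.

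EPCAM (ENSG00000119888), an adhesion molecule of simple epithelia and of epithelial progenitors, lies on chromosome 2 from 47345158 to 47387601 (plus strand). Its FPKM were 1.54, 1.09 and 0.882 in DMSO and 1.10, 0.883 and 1.10 in PD, and the groups overlapped, with DMSO replicate 1 as the highest library. The log2 fold change was -0.09 with a 95% confidence interval of -0.39 to 0.21 (adjusted p = 0.57, limma). Without DMSO replicate 1 it was 0.03. The ratio of EPCAM to CDH1 was 7.52 to 10.95 in DMSO and 19.1 to 40.9 in PD (exact two-sided permutation p = 0.10, adjusted 0.10). Its log2 difference was 1.74, and 0.60 with a pseudocount of 0.1 FPKM (exact permutation p = 0.20).

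**Figure D5:**
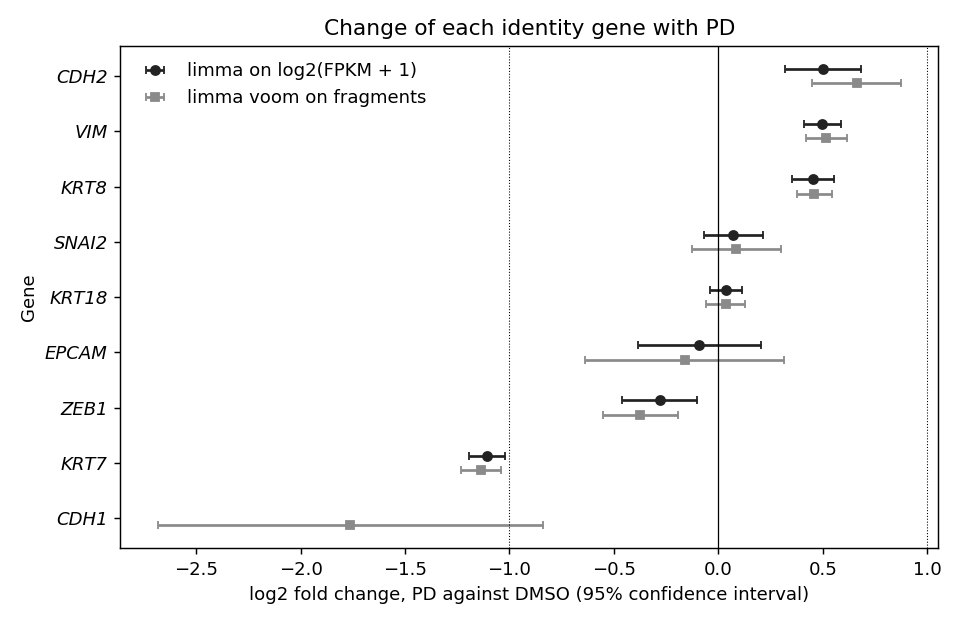
Log2 fold change of PD against DMSO with its 95% confidence interval for each identity gene, from limma on log2(FPKM + 1) (black circles) and from limma voom on fragments (grey squares), with dotted lines at 2-fold. The interval of CDH1, shown only for voom, where it met the fragment minimum through DMSO alone, runs from -2.68 to -0.84. Those of EPCAM, KRT18 and SNAI2 include 0.

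Further cadherins and their catenins, the cytoplasmic partners that tie cadherins to actin, were measured for 19 of 24 genes. Of the 9 tested, 3 rose, 5 fell and 1 was not called, beside 31.9% higher and 26.2% lower among all tested genes. The median change of the 9 was -0.14 on the log2 scale. The catenin JUP (plakoglobin), which serves both adherens junctions and desmosomes, was the most abundant and fell from 187 ± 7.71 to 128 ± 2.995 FPKM (SD, n = 3 each), which is -0.54 on the log2 scale (adjusted p = 2.4e-05, limma). CTNNA1 (-0.29) and VCL (-0.39), which link junctions to actin, fell as well. CDH24 rose from 4.73 ± 0.678 to 13.2 ± 0.437 FPKM (SD, n = 3 each), which is 1.32 on the log2 scale, and was above CDH1 and CDH2 in both groups. AFDN, which encodes the nectin-binding protein afadin, rose by 0.50 on the same scale.

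Of the repressors of the set, ZEB1 fell and SNAI2 was not called. SNAI2 (ENSG00000019549), on chromosome 8 from 48917598 to 48921740 (minus strand), had 5.96, 5.65 and 5.12 FPKM in DMSO and 5.87, 6.05 and 5.80 FPKM in PD, and the groups overlapped. Its log2 fold change was 0.07 with a 95% confidence interval of -0.07 to 0.21 (adjusted p = 0.33, limma), and it was -0.04 with upper quartile scaling. ZEB1 (ENSG00000148516), on chromosome 10 from 31318495 to 31529814 (plus strand), had 3.32, 3.32 and 3.52 FPKM in DMSO and 2.99, 2.48 and 2.39 FPKM in PD. All PD libraries were below all DMSO libraries, and ZEB1 changed by -0.28 on the log2 scale (SE 0.08, limma adjusted p = 0.016). Over the alternatives its adjusted p ran from 0.00069 to 0.055, and the call was lost without PD replicate 2 (adjusted p = 0.054) and without PD replicate 3 (adjusted p = 0.055). Exons of ZEB1 overlap those of ZEB1-AS1 on the opposite strand, which had 1.05 FPKM in DMSO and 0.833 FPKM in PD and was not called. A difference between SNAI2 and ZEB1 in response was not tested.

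Other EMT transcription factors were measured for 20 of 22 genes. Of the 15 tested, 5 rose, 4 fell and 6 were not called, beside 31.9% higher and 26.2% lower among all tested genes. The median of the 15 on the log2 scale was 0.09. The balance turned with upper quartile scaling (4 higher and 5 lower, median -0.07) and by voom (5 higher and 7 lower of 19, median -0.07), and the median was -0.0073 without the minimum on FPKM. FOXC1, a forkhead factor, was the most abundant and fell from 31.4 ± 1.06 to 17.3 ± 1.05 FPKM (-0.82 on the log2 scale), and SOX4 fell from 12.3 ± 1.31 to 5.27 ± 0.287 FPKM (-1.08; SD, n = 3 each). ID1, an inhibitor of basic helix-loop-helix factors, rose by 0.61 on the log2 scale and MSX1 rose by 0.82, while TCF3, an E-box binding factor, fell by 0.14 but lost its call in 6 of 12 alternatives.

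The wider epithelial list had 53 of 56 genes in the table and 34 tested, of which 12 rose, 14 fell and 8 were not called (median log2 fold change -0.09). Over all tested genes, 31.9% were called higher and 26.2% lower. Upper quartile scaling turned the list into 8 higher and 19 lower genes, in a fit with 3376 higher and 5263 lower over all genes. NECTIN1, a cell adhesion molecule of adherens junctions, rose from 2.55 ± 0.205 to 9.90 ± 0.458 FPKM (SD, n = 3 each), which is 1.62 on the log2 scale (adjusted p = 3.2e-06, limma), and LLGL2, a polarity gene, rose by 0.91. ITGA6, a laminin receptor subunit, rose by 0.79. PKP3, a desmosomal plaque gene, fell from 39.8 ± 1.44 to 25.05 ± 0.233 FPKM (-0.65 on the log2 scale). PERP, a desmosomal gene, had the highest level in DMSO (74.0 ± 3.41 FPKM) and changed by 0.11 with an adjusted p of 0.0499 (limma), a call lost in 9 of 12 alternatives and turned to -0.02 by upper quartile scaling. In DMSO, 29 of the 53 genes reached 1 FPKM and 23 reached 5 FPKM, while 14 had at most 0.1 FPKM, beside 0.127 FPKM for CDH1. Among these 14, the splicing factor gene ESRP1 had 1, 0 and 0 fragments, the junction gene OCLN had 3, 6 and 1, RAB25 had 0 in each library, and SPINT1 had 0, 0 and 2.

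The mesenchymal list had 35 of 40 genes in the table and 22 tested. Of the 22, 11 rose, 2 fell and 9 were not called, beside 31.9% higher and 26.2% lower among all tested genes. The median log2 fold change of the list was 0.13, beside 0.01 for all tested genes. With upper quartile scaling 9 genes of the list were higher and 4 lower. FGFR1, a receptor of fibroblast growth factors, rose from 4.22 ± 0.347 to 10.6 ± 0.298 FPKM (1.16 on the log2 scale), and NT5E, which encodes the surface enzyme CD73, rose from 4.02 ± 0.221 to 9.15 ± 0.878 FPKM (1.01; SD, n = 3 each). MSN, which encodes moesin, rose by 0.38. S100A4, the most abundant of the list, had 145 ± 11.7 FPKM in DMSO and 140 ± 5.13 FPKM in PD (adjusted p = 0.50, limma). The summed FPKM of the 35 genes was 478 to 505 in DMSO and 516 to 542 in PD.

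Genes of some other cell type lists also moved with PD, and their part in the results above was not tested. Among all tested genes, 58.1% were called in either direction. CPS1 fell from 225 to 109 FPKM (-1.04 on the log2 scale), while RBP4, a plasma retinol carrier, rose by 0.71 and FOXA1 by 0.35, which accounts for all 3 tested hepatocyte markers. FOXA1 lost its call without DMSO replicate 2 and without PD replicate 2 (highest adjusted p = 0.058, limma). In the bile duct list, ANXA4 and SOX9 rose by 0.49 and 0.47 and ONECUT2 and TSPAN8 fell by 0.25 and 0.22, but TSPAN8 lost its call in 9 of 12 alternatives, including each with a library left out. Both tested endothelial genes, EGFL7 and ESAM, rose, by 0.88 and 0.19, although ESAM was not called with upper quartile scaling, while PECAM1 and VWF were at or near 0 FPKM in both groups. Of the 3 tested squamous genes, SFN and KRT16 rose and KRT17 fell. The summed leukocyte markers ran from 0.723 to 0.855 FPKM in DMSO and from 0.695 to 0.842 FPKM in PD. In the urothelial and the fibroblast and stellate lists PPARG and ACTA2 rose, and no tested intestinal or neural gene was called.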

How the data were processed

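RNA of 6 libraries, 3 per treatment, was analysed. Per the labels and the methods of the study, the authors selected poly(A) RNA, aligned reads to hg38 with HISAT2, counted them per gene with HTSeq 0.6.0 and deposited FPKM. The strand setting and annotation release are not given in the sources used here. Symbols, coordinates and exons were taken from GENCODE release 44, which holds 28161 of the 28563 identifiers. Whole fragments were worked back from the FPKM within 0.02 fragments for all genes, for 13739 of them with the GENCODE exon length. For the other 14824, among them KRT7, KRT18, CDH1, CDH2, VIM and SNAI2, the smallest length that gave whole fragments was taken. The match is no check for these genes, and their fragment counts could be too low. Library totals were 16308476 to 18071632 fragments, and the depth limits genes such as CDH1.

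Because FPKM are not counts, limma 3.58.1 in R 4.3.3 was fitted to log2(FPKM + 1) with a mean-variance trend, over the 14400 genes whose mean reached 0.5 FPKM, and p-values were adjusted by Benjamini-Hochberg over all of them. Fold changes on this scale understate those of genes with low FPKM. Exact permutation tests of ratios used scipy 1.17.1. Of 8 planned ratios, 6 could be made without KRT19. The genes and lists were chosen with earlier results of these data known. Named genes were all identity genes, and of each list the 3 most abundant tested genes and the 3 largest changes with groups that did not overlap, plus cell type markers of at least 5 FPKM in DMSO. Other genes were named after their values were known. The alternatives were a pseudocount of 0.1, no minimum, 2 scalings, a replicate block, voom on the fragments and leaving out each library. Some genes of these lists are not reported here. The script was tested on simulated data.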

Additional observations from a re-analysis of the deposited data

How the results depend on the processing

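KRT7, KRT8, VIM and CDH2 kept their direction and call under all 12 alternatives, with log2 fold changes of -1.24 to -1.07, 0.32 to 0.49, 0.37 to 0.52 and 0.40 to 0.66. The number of identity genes called lower, 2, ran from 1 to 2 with single libraries omitted, because ZEB1 lost its call without PD replicate 2 or 3. Upper quartile scaling shifted the median of all genes by -0.11 on the log2 scale and turned KRT18 (-0.10) and SNAI2 (-0.044) negative, and EPCAM ran from -0.19 to 0.029 when single libraries were omitted, none of which was called. At an adjusted p of at most 0.05, 4588 genes were higher and 3780 lower over all genes, against 3376 and 5263 with upper quartile scaling. At 2-fold, 294 genes were higher and 226 lower, against 698 and 550 at pseudocount 0.1, 1012 and 722 in the voom fit, and 188 and 312 with upper quartile scaling, which turned the balance. The replicate number as a block gave 4414 higher genes and changed no call of an identity gene. The correlation of the deviations of same-numbered libraries was -0.03, -0.0046 and 0.09, beside -0.08 to 0.08 for differently numbered ones. These values gave no sign of a pairing by number and cannot exclude one. The 6 ratios kept their sign under all 7 alternatives, but with a pseudocount of 0.1 the log2 differences of EPCAM, CDH2 and VIM to CDH1 shrank from 1.74, 2.56 and 2.42 to 0.60, 1.39 and 1.27. TPM rescale all genes of a library alike and were no test of the percentiles in DMSO. CDH1, with 3 to 15 fragments per library, is limited by depth.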
